A study of Mus musculus with 24 samples.

Results

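The genes described here are 7 components of the primary cilium: Ift88, Ift80, Ift172, Kif3a, Tulp3, Bbs2 and Ofd1. They were taken by exact gene symbol from the array annotation, and all 7 were among the 12394 genes with a probe set of a single symbol. The data are 24 Affymetrix arrays of mouse RNA. Normal cerebellum came from wild-type mice, with 2 arrays at postnatal day 6 (P6) and 1 array of an adult. Primary medulloblastoma (MB), a tumor of the cerebellum, has 3 arrays, from adult Ptch1 mutant animals. The other 18 arrays are cultures of SMB21, SMB55 and SMB56, tumor lines established from spontaneous medulloblastomas of Ptch+/- mice and kept as neurospheres in serum-free medium with B27. Untreated parental cells have 4 arrays of SMB21, 2 of SMB55 and 2 of SMB56. Growth factor cells (GF) have 1 array per line, after more than 3 weeks with EGF at 20 ng/mL, bFGF at 20 ng/mL and heparin. RAS transformed cells have 3 arrays of SMB21, 2 of SMB55 and 2 of SMB56, and the RAS allele and its delivery are not given in the sources used here. Every tumor and culture carries the Ptch1 mutation and every cerebellum lacks it. The age label of P6 replicate 2 conflicts with its title, which was followed. Replicates are titled biological, but nothing names the culture or animal behind each, so p-values measure the spread between these arrays, which may be technical.

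The primary cilium is a single antenna of the cell surface, built on a basal body from the mother centriole and filled by intraflagellar transport (IFT) trains. Kinesin-2 carries the trains outward with the IFT-B complex, and the IFT-A complex with Tulp3 brings membrane receptors in. In vertebrates Hedgehog signals pass through the cilium, where Ptch1 holds Smoothened in check, and Gli1 is the target gene most often used as a readout. Granule neuron precursors of the young cerebellum bear such cilia, and medulloblastomas with loss of Ptch1 arise from these cells.

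The cilium genes were spread over several patterns on these arrays and did not move as a block. Tulp3, the adaptor that loads membrane receptors, was 4.41-fold higher in parental SMB cells than in P6 cerebellum and rose a further 2.01-fold in RAS cells, on the brighter of its 2 probe sets. The dimmer Tulp3 probe set gave a log2 difference of 0.36 in the first comparison (adjusted p = 0.0999) and of -0.10 in the second (adjusted p = 0.466). The IFT-B genes Ift88 and Ift80 fell 1.44-fold and 1.62-fold in RAS cells, and the other probe set of Ift80 gave 0.00 (adjusted p = 0.987). Both calls were lost without line SMB55 and without line SMB56. Ofd1, a gene of centriolar satellites and the basal body, fell 2.07-fold in GF cells and 1.40-fold in RAS cells. None of these calls among cultures passed with 1 mean per line and treatment (adjusted p = 0.0568 to 0.244). No member passed the test between primary MB and P6 cerebellum, where Gli1 was 3.17-fold higher. Fold changes are from differences of log2(intensity + 16), which understate changes of dim genes, and a gene is called at a limma adjusted p under 0.05 over all 12394 genes.

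**Figure D1:**
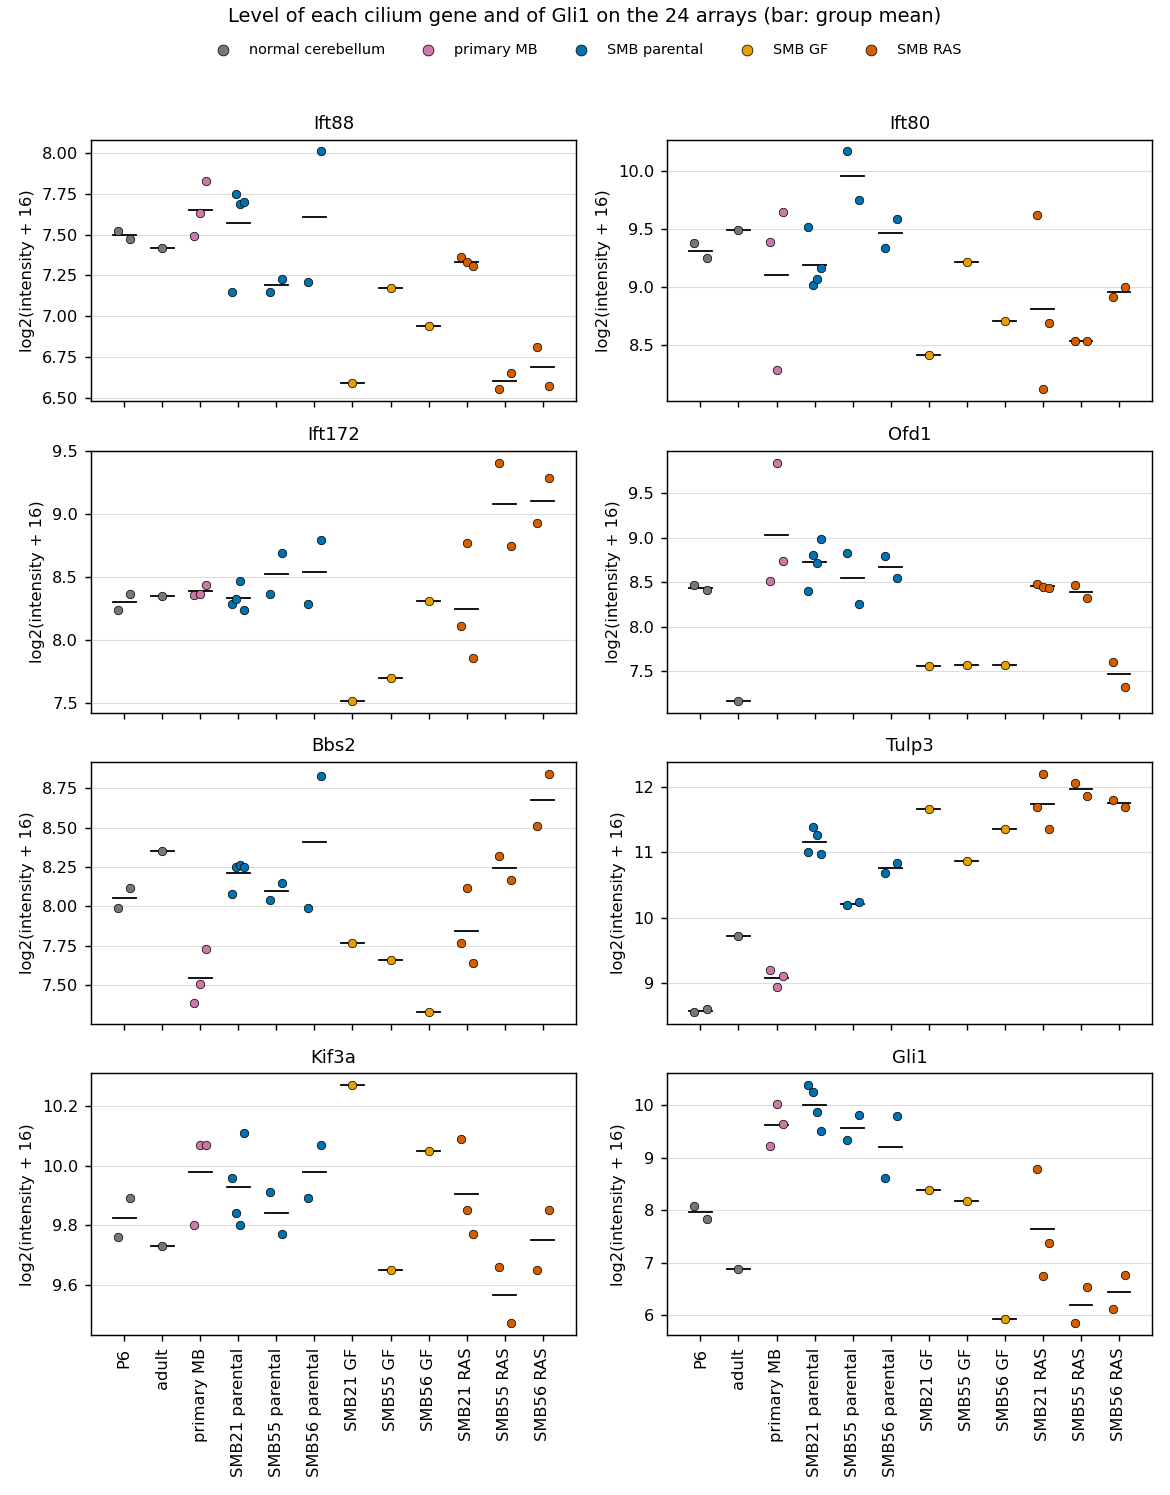
Level of the 7 cilium genes and of Gli1 on each of the 24 arrays, as log2(intensity + 16), with 1 point per array and a bar at the mean of each group; the y axes differ between genes. Tulp3 lies between 8.55 and 9.71 on the tissue arrays and between 10.19 and 12.20 on the culture arrays, and the 3 GF arrays of Ofd1 lie at 7.56, 7.57 and 7.57.

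Around these genes, the arrays differed as follows. Gli1 was lowest among tissues in adult cerebellum, at 6.87, and lay at 7.84 to 8.08 in P6 cerebellum, 9.22 to 10.03 in primary MB and 8.62 to 10.38 in parental cells. Of 9 microglia and macrophage markers, 9 fell in parental cells against P6, and their summed intensity was 324 to 405 in parental cells, 5418 to 6997 in P6 and 10311 to 16477 in MB. Astrocyte markers summed to 28669 to 31509 in P6 and 3082 to 3305 in MB, and Purkinje cell markers to 24408 to 25071 and 501 to 2012. Endothelium and pericyte markers gave 10206 to 10433 in P6 and 959 to 2170 in MB. Oligodendrocyte lineage markers gave 9300 to 13360 and 1306 to 2863, and mature granule neuron markers 7430 to 8367 and 7948 to 26614. Of 6 measured ependymal and motile cilium markers, 4 fell in MB and 6 in parental cells against P6, with Foxj1 and Tekt1 below the lower quartile of all genes on every MB and culture array. Of 8 granule neuron precursor markers, all were above that quartile on at least 1 array of P6 cerebellum, MB and parental cells, and 7 fell in RAS cells against parental cells. Their summed intensity was 39625 to 43010 in P6, 48137 to 53902 in MB and 21189 to 34108 in parental cells. In parental cells against P6, Neurod1 and Zic1 fell by 3.23 and 0.32 (limma adjusted p = 0.000341 and 0.0467). Atoh1 and Cxcr4 rose there by 2.19 and 1.40 (adjusted p = 0.0118 and 0.012), and the others were not called. Of 17 proliferation genes, 17 fell in adult against P6 cerebellum, 15 fell in RAS against parental cells, and 0 changed in GF cells. The summed proliferation intensity was 73482 to 93340 in parental, 69099 to 89616 in GF and 39137 to 67737 in RAS arrays. The part of any of these in the cilium results was not tested, and in bulk RNA fewer cells of a type and less RNA per cell cannot be told apart.

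Ift88 encodes a core IFT-B subunit whose hypomorphic mutation is the classic mouse model of short or missing cilia. Its level was 7.52 and 7.47 in P6 cerebellum, 7.42 in adult cerebellum, and 7.49, 7.63 and 7.83 in primary MB. In SMB21 parental cells it was 7.15, 7.75, 7.69 and 7.70, in SMB55 parental cells 7.15 and 7.23, and in SMB56 parental cells 7.21 and 8.01. These tissue and parental values overlapped, and 0 of the 3 tissue comparisons among P6, MB and parental cells passed, with differences from -0.19 to 0.15. In RAS cells the levels were 7.33, 7.31 and 7.36 in SMB21, 6.55 and 6.65 in SMB55, and 6.81 and 6.57 in SMB56. The RAS arrays of SMB55 and of SMB56 lay below every parental array of their line, while those of SMB21 lay inside the parental range. In these 2 lines 63.3% and 59.9% of all genes were without overlap in either direction. Across lines Ift88 fell by 0.53 on the log2 scale (SE 0.17, 95% interval -0.88 to -0.18, adjusted p = 0.0234). It fell by 0.92 in SMB56 (adjusted p = 0.0361), and the differences of -0.24 in SMB21 and -0.60 in SMB55 did not pass (adjusted p = 0.431 and 0.111). A test of whether the RAS response differed by line did not pass (adjusted p = 0.38). The call across lines was lost without line SMB55 (-0.50, adjusted p = 0.1), without line SMB56 (-0.38, adjusted p = 0.138), and without the first SMB55 RAS array (adjusted p = 0.0513) or the second SMB56 RAS array (adjusted p = 0.0522). In SMB56 alone, the difference was -0.52 without parental replicate 2 (adjusted p = 0.137), the array at 8.01, and the call was also lost without SMB21 parental replicate 3 or 4 or either SMB56 RAS array (adjusted p = 0.0519 to 0.215). The GF arrays gave 6.59, 7.17 and 6.94 in SMB21, SMB55 and SMB56, a difference of -0.54 that did not pass (SE 0.22, adjusted p = 0.14). It passed without the SMB55 GF array (-0.80, adjusted p = 0.0473), which lay within its parental range.

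Among the 7 cilium genes, 4 were called in RAS against parental cells and 1 in GF against parental cells, where 32.1% and 8.95% of all genes were called. Both comparisons use the same 8 parental arrays. In tissues the calls numbered 0 for MB against P6 (11.0% of all genes called), 0 for adult against P6 (19.2%), 1 for parental cells against P6 (25.6%) and 2 for parental cells against MB (20.6%). At an unadjusted limma p under 0.05, 1 member was reached in MB against P6, Bbs2, and 2 in adult against P6, Ofd1 and Tulp3. The share of all genes at that looser threshold is not given here, so these counts cannot be set against it. RAS against GF cells gave 1 call, of Ift172 (11.2% of all genes called).

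**Figure D2:**
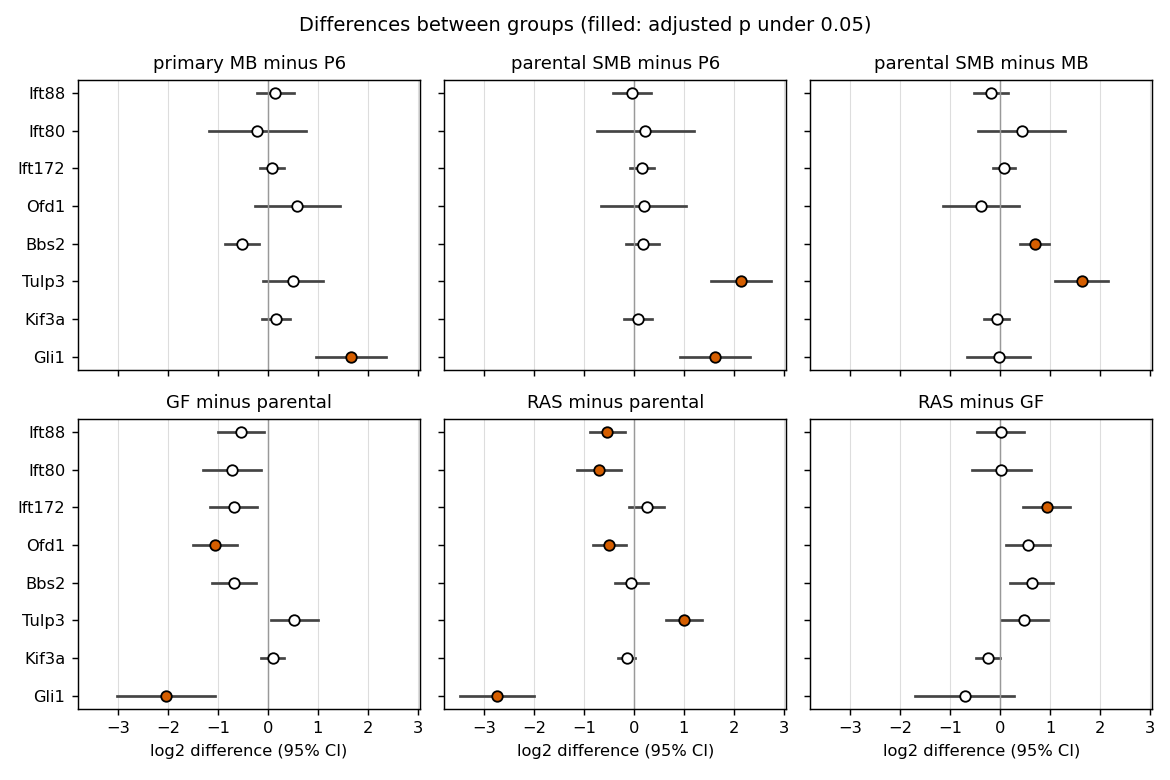
Difference of log2(intensity + 16) for the 7 cilium genes and Gli1 in 6 comparisons, with bars for the 95% interval and filled points for an adjusted p under 0.05. Tulp3 is the member with filled points in the most panels, and the points of Ift88, Ift80 and Ofd1 are on the left and filled in the panel of RAS minus parental.

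Ift80, an IFT-B subunit mutated in a human short-rib skeletal disorder, has a pair of probe sets, and the brighter one is used here. It read 9.38 and 9.25 in P6, 9.49 in the adult, and 9.39, 8.29 and 9.65 in MB, so that MB replicate 2 stood below the other tissue arrays. Parental levels were 9.52, 9.02, 9.07 and 9.17 in SMB21, 10.17 and 9.75 in SMB55, and 9.34 and 9.59 in SMB56. RAS levels were 8.12, 8.69 and 9.62 in SMB21, 8.54 and 8.54 in SMB55, and 8.92 and 9.00 in SMB56. The RAS arrays were below the parental arrays in SMB55 and SMB56, where 63.3% and 59.9% of all genes did not overlap in either direction. SMB21 RAS array 3 at 9.62 was above all parental arrays of that line. Ift80 fell by 0.70 in RAS cells (SE 0.21, 95% interval -1.14 to -0.26, adjusted p = 0.018), and by 1.41 in SMB55 alone (SE 0.37, adjusted p = 0.0185). The call across lines was lost without line SMB55 (-0.43, adjusted p = 0.198) and without line SMB56 (-0.77, adjusted p = 0.0606). That within SMB55 was lost without its first parental array (-1.21, adjusted p = 0.133) or either of its RAS arrays (adjusted p = 0.0696 and 0.0872). Without SMB21 RAS array 3, the difference in SMB21 went from -0.38 to -0.79 and passed (adjusted p = 0.0185). The dimmer probe set of Ift80 gave a RAS difference of 0.00 (adjusted p = 0.987), so the fall rests on 1 of its 2 probe sets. In GF cells Ift80 read 8.42, 9.22 and 8.71, each below every parental array of its own line, as 10.6% of all genes were. The 3 line differences were -0.77, -0.74 and -0.76, and across lines the value was -0.72 (SE 0.27, adjusted p = 0.115). With the other probe set it was -0.83 and passed (adjusted p = 0.021), and without SMB21 RAS array 3 it was -0.75 and passed (adjusted p = 0.0243). In parental cells against MB, the dimmer probe set was higher by 0.90 (adjusted p = 0.0383) where the brighter one gave 0.43 (adjusted p = 0.439).

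Ift172, the largest IFT-B subunit, had no call against parental cells. Tissue levels were 8.24 and 8.37 in P6, 8.35 in the adult, and 8.36, 8.37 and 8.44 in MB. Parental levels were 8.29, 8.33, 8.47 and 8.24 in SMB21, 8.37 and 8.69 in SMB55, and 8.29 and 8.80 in SMB56. RAS levels were 8.77, 7.86 and 8.11 in SMB21, 9.41 and 8.75 in SMB55, and 8.93 and 9.29 in SMB56. In SMB55 and SMB56 the RAS arrays were above the parental arrays, whereas SMB21 overlapped and its mean difference was -0.09. Without overlap in either direction were 63.3% of all genes in SMB55 and 59.9% in SMB56. Across lines the RAS difference was 0.26 (SE 0.17, adjusted p = 0.256). GF levels were 7.52, 7.70 and 8.31, which for SMB21 and SMB55 lay below all parental arrays of the line and for SMB56 inside their range. The GF difference was -0.68 (SE 0.22, adjusted p = 0.0687). It passed when 1 of 3 arrays was left out, namely the first SMB56 parental array (-0.77, adjusted p = 0.0338), the second SMB21 RAS array (adjusted p = 0.0444) or the first SMB55 RAS array (adjusted p = 0.0476). Ift172 was 1.92-fold higher in RAS than in GF cells (log2 difference 0.94, SE 0.22, adjusted p = 0.0168), a call lost without line SMB55 (0.73, adjusted p = 0.163), without the SMB55 GF array (0.79, adjusted p = 0.106) or with 1 mean per line and treatment (0.97, adjusted p = 0.0835).

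Kif3a encodes a motor subunit of kinesin-2 and showed the narrowest span of the 7 genes, from 9.47 to 10.27 over the 24 arrays. It read 9.76 and 9.89 in P6, 9.73 in the adult, and 9.80, 10.07 and 10.07 in MB. Parental arrays ran from 9.77 through a median of 9.90 to 10.11, and RAS arrays from 9.47 through 9.77 to 10.09. The GF arrays read 10.27, 9.65 and 10.05, above all parental arrays in SMB21, below all in SMB55 and within them in SMB56. No comparison of Kif3a passed with the probe set used, and its RAS difference was -0.14 (SE 0.08, 95% interval -0.32 to 0.03, adjusted p = 0.198). The other Kif3a probe set, which is nearly as bright, fell in RAS cells by 0.52 (adjusted p = 0.00521), in RAS against GF cells by 0.54 (adjusted p = 0.0474), and in SMB56 RAS cells by 0.91 (adjusted p = 0.0234).

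Tulp3, a tubby-family protein, binds phosphoinositides and the IFT-A complex and brings G protein-coupled receptors into the cilium, and its loss in mice raises Hedgehog signaling in the neural tube. The RefSeq promoter stretch before its annotated start (GRCm38.p6, chr6:128355874-128356101, minus strand, 228 bases) is printed because Tulp3 had the largest differences of the 7 genes. Capitals mark CpG pairs, of which there are 18.

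Tulp3: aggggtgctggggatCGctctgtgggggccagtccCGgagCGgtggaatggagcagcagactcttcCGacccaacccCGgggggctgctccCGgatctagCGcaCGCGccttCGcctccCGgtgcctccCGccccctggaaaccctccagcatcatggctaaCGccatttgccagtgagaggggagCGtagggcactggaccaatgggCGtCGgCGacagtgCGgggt

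Tulp3 read 8.55 and 8.59 in P6 cerebellum, 9.71 in the adult cerebellum, and 9.19, 8.94 and 9.10 in primary MB. Parental cells read 11.01, 11.39, 11.27 and 10.98 in SMB21, 10.19 and 10.24 in SMB55, and 10.68 and 10.84 in SMB56. On the brighter probe set, used here, every culture array thus lay above every tissue array. That did not hold on the dimmer one, and the share of all genes with such a split is not given here. Tulp3 was higher in parental cells than in P6 by 2.14 (SE 0.25, 95% interval 1.54 to 2.74, adjusted p = 0.00184), and all 8 parental arrays were above both P6 arrays, as were those of 22.4% of all genes. Against MB it was higher by 1.64 (SE 0.23, 3.11-fold, adjusted p = 0.00515), again without overlap, as 11.3% of all genes were. MB stood above P6 by 0.50, which did not pass (SE 0.25, adjusted p = 0.241). The single adult array stood above P6 by 1.14 (SE 0.34, adjusted p = 0.0593). That fit takes the lone adult array to vary like the other groups, and the difference passed when the spread was estimated without line SMB21 (adjusted p = 0.0219) or SMB55 (adjusted p = 0.0128).

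Within the cultures Tulp3 was ordered by line in parental cells, with means of 11.16 in SMB21, 10.76 in SMB56 and 10.21 in SMB55. A limma F test over the 3 parental lines gave F = 11.1 and an adjusted p of 0.0468, where 5.08% of all genes were called. That call was lost under 14 of 26 alternatives, with adjusted p up to 0.521, among them leaving out SMB21 parental replicate 2, 3 or 4 (0.116, 0.127 and 0.0844), either SMB55 parental array (0.171 and 0.163), SMB21 RAS array 3 (0.0599), or any SMB55 or SMB56 RAS array (0.0639 and 0.0764). RAS arrays read 12.20, 11.35 and 11.69 in SMB21, 12.07 and 11.86 in SMB55, and 11.80 and 11.70 in SMB56. They lay above the parental arrays in SMB55 and SMB56, where 63.3% and 59.9% of all genes did not overlap in either direction. In SMB21 the second RAS array, at 11.35, fell among the parental ones. Tulp3 rose by 1.01 in RAS cells (SE 0.17, 95% interval 0.65 to 1.37, adjusted p = 0.000398). By line it rose by 0.58 in SMB21 (adjusted p = 0.0414), 1.75 in SMB55 (adjusted p = 0.000622) and 0.99 in SMB56 (adjusted p = 0.0226), beside 19.4%, 21.5% and 12.0% of all genes called. The RAS means of the lines, 11.75, 11.96 and 11.75, lay closer together than the parental means. The test of a difference by line of the RAS response did not pass (adjusted p = 0.101), but did without the first SMB21 RAS array (adjusted p = 0.0182). The SMB21 call was lost without SMB21 parental replicate 1, 3 or 4, SMB21 RAS replicate 1 or 3, either SMB55 parental array, or any SMB55 or SMB56 RAS array (adjusted p = 0.0522 to 0.153), and with arrays centred (0.54, adjusted p = 0.0614). The difference was 0.36 without the first SMB21 RAS array. The SMB56 call was lost without its first parental array or either RAS array (adjusted p = 0.107 to 0.132). GF arrays read 11.66, 10.87 and 11.36, each above every parental array of its line, as 8.09% of all genes were in all 3 lines. The GF difference was 0.53 (SE 0.22, adjusted p = 0.156), with line differences of 0.49, 0.66 and 0.60.

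These Tulp3 values come from 1 of its 2 probe sets. The other probe set was dim, from 5.57 to 6.80, with a mean of 6.0, under the lower quartile of all genes (6.29), and its correlation with the brighter one over the 24 arrays was 0.38. It gave 0.36 for parental cells against P6 (adjusted p = 0.0999), 0.14 against MB (adjusted p = 0.474) and -0.10 for RAS cells (adjusted p = 0.466). In GF cells it rose by 0.64 (adjusted p = 0.0073), and in RAS against GF cells it fell by 0.74 (adjusted p = 0.00449), where the brighter one gave 0.48 (adjusted p = 0.166). In single lines its RAS differences were -0.04, 0.02 and -0.32 in SMB21, SMB55 and SMB56.

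**Figure D3:**
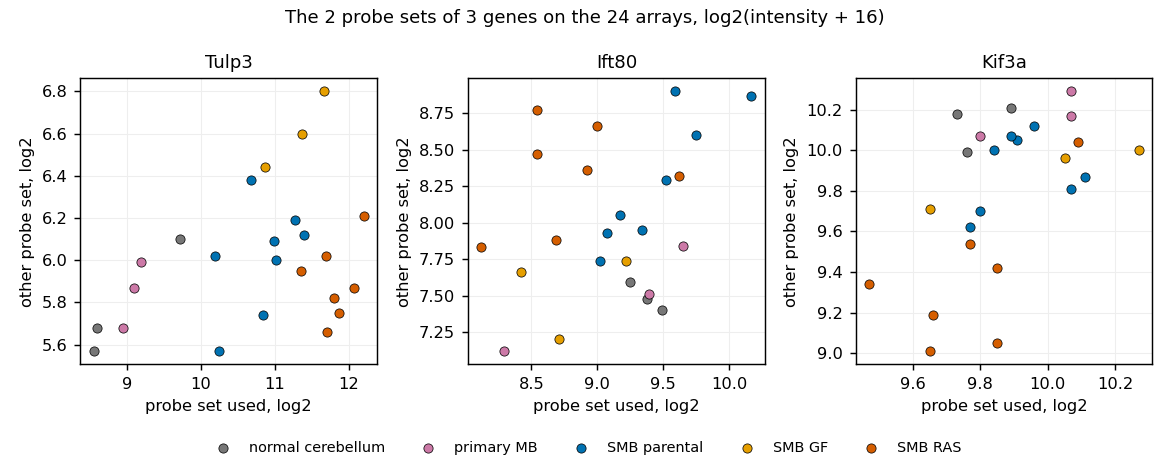
Levels of the brighter probe set used (x axis) against the other probe set (y axis) of Tulp3, Ift80 and Kif3a on the 24 arrays, both as log2(intensity + 16), with 1 point per array. The correlations are 0.38 for Tulp3, 0.33 for Ift80 and 0.55 for Kif3a, and the RAS arrays of Tulp3 are at the right of the x axis but not at the top of the y axis.

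Bbs2 encodes a subunit of the BBSome, the coat that moves membrane proteins out of the cilium and is affected in Bardet-Biedl syndrome. It read 7.99 and 8.12 in P6, 8.35 in the adult, and 7.39, 7.51 and 7.73 in MB. Parental levels were 8.08, 8.25, 8.26 and 8.25 in SMB21, 8.04 and 8.15 in SMB55, and 7.99 and 8.83 in SMB56. The 3 MB arrays thus lay below all 3 cerebellum arrays and below all 8 parental arrays. Bbs2 was higher in parental cells than in MB by 0.69 (SE 0.13, 1.61-fold, adjusted p = 0.0124), without overlap, as 11.3% of all genes were. When arrays were centred on their medians, the value became 0.48 and did not pass (adjusted p = 0.0537). MB was lower than P6 by a difference of -0.51 that did not pass (SE 0.14, 95% interval -0.85 to -0.18, adjusted p = 0.0649). Against P6 and adult as 1 group of 3 it was -0.61 and passed (adjusted p = 0.0412). The 3 MB arrays did not overlap P6 for Bbs2, Ofd1 and Tulp3, but with groups of 3 and 2 arrays this holds for 55.3% of all genes. In GF cells Bbs2 read 7.77, 7.66 and 7.33, below all 8 parental arrays, as was the case for 4.61% of all genes. The difference was -0.68 (SE 0.21, 95% interval -1.12 to -0.24, adjusted p = 0.0523). It passed with arrays centred (adjusted p = 0.0371), with quantile normalization (adjusted p = 0.0354), with genes under the lower quartile left out (adjusted p = 0.0462), and without any of 4 single arrays (adjusted p = 0.024 to 0.0486), which were the SMB21 GF array, the first SMB56 parental array, the second SMB21 RAS array and the second SMB56 RAS array. RAS cells read 8.12, 7.64 and 7.77 in SMB21, 8.32 and 8.17 in SMB55, and 8.51 and 8.84 in SMB56, and their difference from parental cells was -0.05 (SE 0.16, adjusted p = 0.83). By line the RAS values were -0.37, 0.15 and 0.27, and the test of a difference by line did not pass (adjusted p = 0.355). Without the second SMB56 parental array, the one at 8.83, that test passed (adjusted p = 0.0439) and the SMB56 value became 0.68 (adjusted p = 0.0428). Bbs2 was higher in RAS than in GF cells by 0.63, which did not pass (adjusted p = 0.0632). It passed without the SMB21 GF array (0.83, adjusted p = 0.0429), the first SMB56 parental array (adjusted p = 0.0414), SMB21 RAS array 2 (adjusted p = 0.0362) or SMB21 RAS array 3 (adjusted p = 0.0496).

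Ofd1, on the X chromosome, encodes a protein of centrioles and centriolar satellites that is needed for ciliogenesis and is mutated in oral-facial-digital syndrome. Its RefSeq promoter (GRCm38.p6, chrX:166440705-166440954, minus strand, 250 bases before the start) is printed because Ofd1 was the member called in GF cells. It holds 21 CpG pairs, in capitals, beside a median of 13 over 12567 promoters of genes on the array.

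Ofd1: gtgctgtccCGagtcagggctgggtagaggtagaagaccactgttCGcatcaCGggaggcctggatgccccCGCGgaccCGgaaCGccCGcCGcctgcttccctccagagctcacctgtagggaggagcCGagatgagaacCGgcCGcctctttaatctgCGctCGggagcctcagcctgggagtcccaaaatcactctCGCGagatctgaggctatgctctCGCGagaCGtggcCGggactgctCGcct

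Ofd1 read 8.47 and 8.41 in P6, 7.17 in the adult, and 8.51, 9.84 and 8.74 in MB. MB replicate 2 was the highest of the 24 arrays and the adult array the lowest. Parental levels were 8.40, 8.80, 8.71 and 8.98 in SMB21, 8.83 and 8.26 in SMB55, and 8.79 and 8.55 in SMB56, overlapping the P6 and tumor values. The differences among P6, MB and parental cells, from -0.39 to 0.59, did not pass. Adult against P6 gave -1.27 (SE 0.48, adjusted p = 0.12). With the spread estimated without MB replicate 2 the same difference passed (adjusted p = 0.00302).

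The GF arrays of Ofd1 read 7.56 in SMB21, 7.57 in SMB55 and 7.57 in SMB56, below all 8 parental arrays, as was the case for 4.61% of all genes. Ofd1 fell by 1.05 (SE 0.20, 95% interval -1.49 to -0.62, adjusted p = 0.00575), with line differences of -1.16, -0.97 and -1.10, and the call was lost without line SMB21 (-1.03, adjusted p = 0.13) or with 1 mean per line and treatment (-1.08, adjusted p = 0.127). RAS arrays read 8.45, 8.44 and 8.48 in SMB21, 8.47 and 8.32 in SMB55, and 7.60 and 7.33 in SMB56. Those of SMB56 lay below every parental array of the line, where 59.9% of all genes did not overlap in either direction. Those of the other lines lay within their parental ranges. Ofd1 fell by 0.49 in RAS cells (SE 0.15, 95% interval -0.82 to -0.16, adjusted p = 0.0245). In SMB56 alone it fell by 1.20 (SE 0.21, 2.30-fold, adjusted p = 0.00625), against -0.27 in SMB21 (adjusted p = 0.289) and -0.15 in SMB55 (adjusted p = 0.699). The test of that difference by line did not pass (adjusted p = 0.0973). Without line SMB56 the value across lines was -0.23 (adjusted p = 0.204) and without SMB21 it was -0.68 (adjusted p = 0.0858). Leaving out the first SMB55 parental, SMB56 parental or SMB56 RAS array alone gave adjusted p = 0.0505, 0.052 and 0.0549. The SMB56 call was lost without its first parental array (adjusted p = 0.0554) or its second RAS array (adjusted p = 0.0633). Ofd1 was higher in RAS than in GF cells by 0.56, which did not pass (adjusted p = 0.0878) except without line SMB56 (0.85, adjusted p = 0.0156) or its second RAS array (0.68, adjusted p = 0.0322).

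With 1 mean per line and treatment, which leaves 9 values for the 18 cultures, none of the 4 RAS calls of members passed. The limma adjusted p was 0.0568 for Tulp3, 0.123 for Ift80, 0.235 for Ofd1 and 0.244 for Ift88, with differences of 1.11, -0.77, -0.54 and -0.59. All of the RAS results above therefore count arrays of 1 line as separate replicates. In GF cells, the arrays of Ift80, Ofd1 and Bbs2 were below all parental arrays within each of the 3 lines, as 10.6% of all genes were. Within SMB55 and within SMB56, with 2 RAS and 2 parental arrays each, the groups did not overlap for 63.3% and 59.9% of all genes. In RAS cells no member kept its arrays apart from the parental ones within all 3 lines, while Gli1 did, as 14.6% of all genes did in either direction. By the limma F test, 0 members differed by line in the GF response (1.40% of all genes called, 0 members under 0.05 before adjustment) and 0 in the RAS response (3.45%), where 2 members, Ofd1 and Tulp3, were under 0.05 before adjustment. The share of all genes under 0.05 before adjustment is not given here, so the unadjusted counts have no background.

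The wider list of cilium genes holds 57 measured genes besides the 7. In RAS against parental cells 2 of the 57 rose and 19 fell, with a median of -0.21 beside -0.05 for all genes, where 14.1% of all genes rose and 17.9% fell. In GF against parental cells 0 rose and 11 fell, with a median of -0.20 beside -0.01, where 3.99% of all genes rose and 4.96% fell. Left out line by line, the RAS falls numbered 16, 10 and 12 without SMB21, SMB55 and SMB56, and with 1 mean per line and treatment 5. The GF falls numbered 2, 6 and 2 without those lines, and leaving out single arrays gave 4 to 12. With 1 mean per line and treatment the GF count was 0.

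The IFT-B complex held the largest share of falls among classes with over 5 measured genes in RAS cells. Of its 14 measured genes, with Ift88, Ift80 and Ift172 among them, 9 fell and 0 rose, beside 17.9% and 14.1% of all genes, and the median was -0.55. Ift27, the small GTPase of the complex, fell by 1.01 (SE 0.16, adjusted p = 0.000235), and Ttc30b, another IFT-B subunit, by 0.94 (SE 0.18, adjusted p = 0.00126). The count was 3 without line SMB55, 4 without line SMB56, 2 with 1 mean per line and treatment, and 5 to 9 when single arrays were left out. With the mean of a gene's probe sets 8 fell and the median was -0.35. By line, 2 fell in SMB21, 6 in SMB55 and 5 in SMB56, beside 10.3%, 10.9% and 5.90% of all genes. In GF cells 2 of the 14 fell, Ift81 by 0.98 (SE 0.16, adjusted p = 0.00258) and Ttc30b by 0.98 (SE 0.24, adjusted p = 0.0202), although 13 of the 14 had a difference below 0 and the median was also -0.55. With 1 mean per line and treatment the GF count was 0. Beside the RAS counts, 15 of 17 proliferation genes fell in RAS cells with a median of -0.60, and in GF cells 0 did with a median of -0.10.

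The IFT-A genes measured besides Tulp3 were Ift122 and Ift140, and both fell in RAS cells across lines, by 0.67 (SE 0.11, adjusted p = 0.000335) and 0.82 (SE 0.27, adjusted p = 0.0303). In SMB21, SMB55 and SMB56, Ift140 gave -1.18, -1.30 and 0.22 (adjusted p = 0.00901, 0.0195 and 0.726). Ift122 gave -0.76, -0.56 and -0.61 (adjusted p = 0.0115, 0.112 and 0.112). Tulp3, the partner of IFT-A in receptor entry, rose in RAS cells on the brighter probe set. In GF cells Ift122 fell by 0.49 (SE 0.14, adjusted p = 0.043) and Ift140 gave -0.32 (adjusted p = 0.672). Both genes were higher in parental cells than in P6, Ift140 by 0.83 (SE 0.16, adjusted p = 0.0125) and Ift122 by 0.76 (SE 0.16, adjusted p = 0.0146). Ift140 was also higher in MB than in P6, by 0.79 (SE 0.16, adjusted p = 0.0269).

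Of 4 ciliary motor genes 0 were called across lines in RAS or GF cells with the probe sets used. The other Kif3a probe set fell in RAS cells by 0.52 (adjusted p = 0.00521). Within lines, Kif3b gave -1.49 in SMB55 RAS cells (adjusted p = 0.0111), beside 0.14 in SMB21 and -0.28 in SMB56. Kifap3, the adaptor of the kinesin-2 motor that holds Kif3a, was lower in parental cells than in P6 by 1.26 (a difference of -1.26, SE 0.18, adjusted p = 0.00372) and than in MB (a difference of -0.72, SE 0.16, adjusted p = 0.0222), while Kif3a gave 0.09 and -0.07. Among 5 BBSome and chaperonin genes, Bbip1, a small BBSome subunit, fell in RAS cells by 1.35 (SE 0.26, adjusted p = 0.00115). In SMB21, SMB55 and SMB56 it gave -0.68, -2.13 and -1.72 (adjusted p = 0.12, 0.00248 and 0.0151). Of 7 transition zone genes, B9d1 fell in RAS cells by 2.17 (SE 0.51, adjusted p = 0.00468), and Tmem216 and B9d2 fell in GF cells by 0.93 (SE 0.15, adjusted p = 0.00274) and 0.61 (SE 0.15, adjusted p = 0.0249). By line the RAS differences of B9d1 were -0.71 in SMB21, -3.64 in SMB55 and -3.12 in SMB56 (adjusted p = 0.268, 0.00102 and 0.00568). Of 12 basal body and satellite genes, Ofd1 included, 6 fell in RAS cells and 4 in GF cells, where 17.9% and 4.96% of all genes fell. Pcm1, the scaffold of centriolar satellites, fell in RAS cells by 0.75 (SE 0.11, adjusted p = 0.000134), and Cep131, another satellite protein, by 0.80 in RAS cells (SE 0.12, adjusted p = 0.000231) and 0.68 in GF cells (SE 0.16, adjusted p = 0.0171). Evc, a ciliary membrane partner of Smoothened, was higher in parental cells than in P6 by 1.74 (SE 0.19, adjusted p = 0.00148) and fell in RAS cells by 0.92 (SE 0.15, adjusted p = 0.000326) and in GF cells by 0.71 (SE 0.19, adjusted p = 0.0335). Rab3ip and Adcy3, a Rab8 activator and the adenylyl cyclase of neuronal cilia, rose in RAS cells by 0.53 (SE 0.15, adjusted p = 0.0129) and 0.33 (SE 0.10, adjusted p = 0.0231). The 4 RFX transcription factors measured gave 0 calls in RAS and GF cells.

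**Figure D4:**
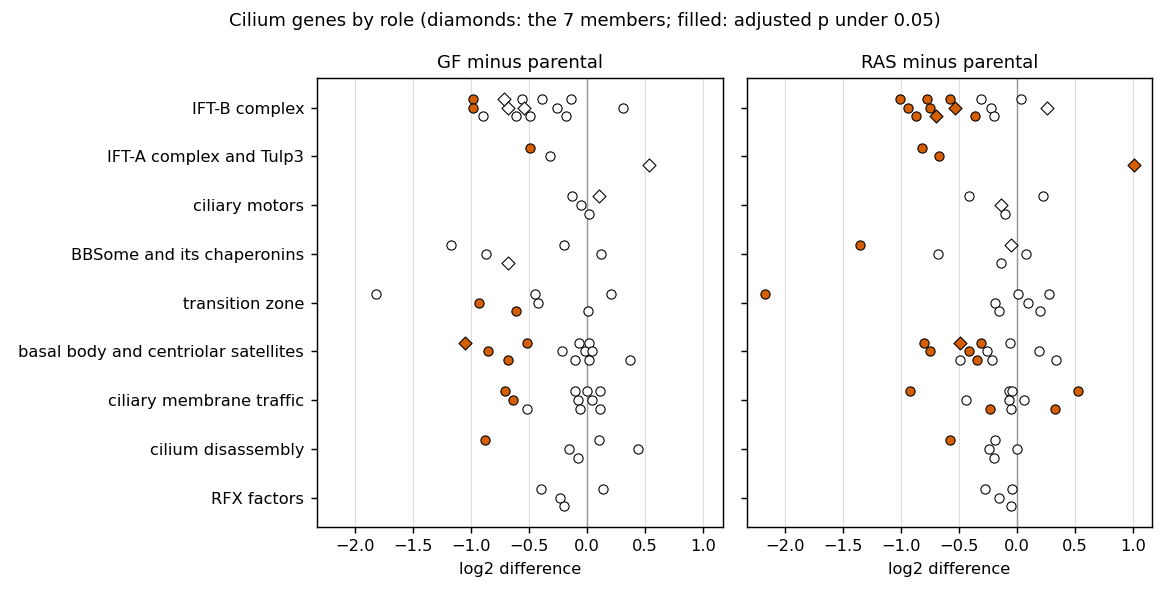
Difference of log2(intensity + 16) for each measured cilium gene by role, GF minus parental at left and RAS minus parental at right, with diamonds for the 7 named genes and filled marks for an adjusted p under 0.05. In RAS cells 9 of the 14 IFT-B marks are filled and left of 0, and the Tulp3 diamond is the mark farthest to the right, at 1.01.

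Between tissues the share of the wider list that was called lay near that of all genes in both parental comparisons. In parental cells against P6, 11 of 57 rose and 5 fell, 28.1% called beside 25.6% of all genes (14.6% higher, 11.0% lower). In parental cells against MB, 7 rose and 8 fell, 26.3% called beside 20.6% of all genes (12.4% higher, 8.19% lower). In MB against P6, 4 rose and 0 fell, 7.02% called beside 11.0% of all genes (4.30% higher, 6.68% lower). In adult against P6, 0 rose and 5 fell, 8.77% called beside 19.2% of all genes (8.85% higher, 10.3% lower). The share of higher calls over all genes depends on the scaling: centring each array moved it from 39.2% to 61.6% in MB against P6 and from 60.2% to 29.1% in parental cells against MB. Of the 5 lower in the adult, Plk1, Aurka and Nek2 are mitotic kinases that also act in cilium disassembly, with differences of -2.66, -3.09 and -1.47 (adjusted p = 5.22e-05, 0.00171 and 0.0299). Ahi1, a transition zone gene expressed in brain, was lower in parental cells than in P6 (-0.71, SE 0.15, adjusted p = 0.016) and than in MB (-0.82, SE 0.13, adjusted p = 0.00884).

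Gli1 was set beside the cilium genes because Hedgehog signals need the cilium. In GF cells Gli1 read 8.39, 8.18 and 5.93, and it fell by 2.04 (SE 0.46, adjusted p = 0.0127). Without the SMB56 GF array, or without line SMB56, the value was -1.45 (adjusted p = 0.117 and 0.148), without line SMB21 it was -2.34 (adjusted p = 0.0911), and with 1 mean per line and treatment it was -2.10 (adjusted p = 0.129). In RAS cells it read 6.74, 7.37 and 8.79 in SMB21, 5.84 and 6.54 in SMB55, and 6.12 and 6.76 in SMB56, and it fell by 2.75 (SE 0.35, adjusted p = 4.93e-05). That call was kept under all 31 alternatives run, with adjusted p from 1.61e-05 to 0.0388. Of the other Hedgehog readouts, Ptch1 gave -0.87 in RAS cells (adjusted p = 0.0505) and Hhip 0.13 (adjusted p = 0.853). In GF cells Ptch1 gave -0.48 (adjusted p = 0.574) and Hhip 0.81 (adjusted p = 0.503). Against P6, Ptch1 gave 0.15 in MB and -0.18 in parental cells, and Hhip gave 0.77 and 1.40, none of them called. Ptch1 is also the gene mutated in every tumor and culture. The tissue rise of Gli1 in MB against P6, 1.67 (SE 0.30, adjusted p = 0.016), came with member differences from -0.51 to 0.59 that did not pass, and it lost its call without either P6 array (adjusted p = 0.0918 and 0.146) or MB replicate 3 (adjusted p = 0.0523). In parental cells against P6 Gli1 rose by 1.63 (SE 0.30, adjusted p = 0.00937), also lost without either P6 array (adjusted p = 0.0571 and 0.0812).

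Tissues and treatments form separate clusters of Gli1, so the relation was taken within the 8 parental and within the 7 RAS arrays, with exact or resampled permutation tests adjusted over the 7 genes. None of the 7 genes passed in either group. In parental arrays the strongest rank relation was that of Tulp3, with Pearson's r = 0.48 (permutation p = 0.244, adjusted 0.802) and Spearman's rho = 0.71 (permutation p = 0.0576, adjusted 0.403), and r was 0.67 without the 2 arrays farthest from the Gli1 median and 0.44 once each line was centred on its mean. In RAS arrays Kif3a gave r = 0.78 (permutation p = 0.0548, adjusted 0.131) and rho = 0.71 (permutation p = 0.0881, adjusted 0.192), and r was 0.42 without the 2 farthest arrays and 0.59 centred by line. Ift172 gave r = -0.76 (permutation p = 0.056, adjusted 0.131) and rho = -0.71 there (permutation p = 0.0881, adjusted 0.192), with r = -0.70 without the 2 farthest and -0.46 centred by line. Ift88 gave r = 0.72 in RAS arrays (permutation p = 0.0552, adjusted 0.131) and rho = 0.68 (permutation p = 0.11, adjusted 0.192), and its r was 0.56 without the 2 farthest arrays and 0.01 centred by line. Centring by line also moved r from 0.67 to 0.92 for Ift80 and from 0.31 to -0.28 for Ofd1 in RAS arrays. There r without the 2 farthest arrays was -0.19 for Ift80 and 0.49 for Ofd1. In parental arrays centring moved r from 0.15 to 0.74 for Ift172, from 0.28 to 0.65 for Bbs2, from -0.42 to -0.74 for Ofd1 and from -0.21 to 0.26 for Ift80. Without the 2 farthest parental arrays, r was 0.14, 0.23, -0.24 and -0.66 in the same order. The centred values were not tested. Arrays of 1 line share their cells and are not independent.

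**Figure D5:**
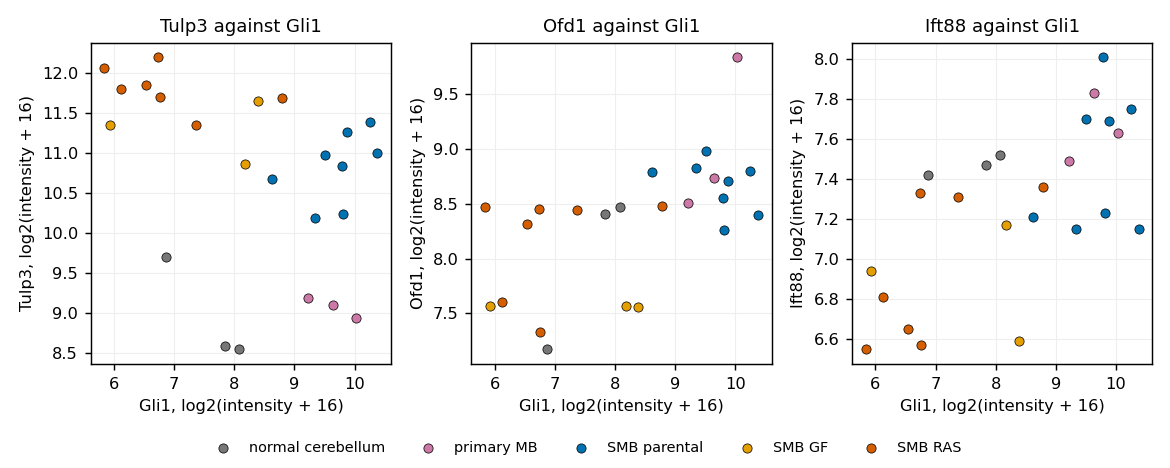
Levels of Tulp3, Ofd1 and Ift88 (y axes) against Gli1 (x axis) on the 24 arrays, all as log2(intensity + 16), with 1 point per array coloured by group. Tissue and culture arrays form separate clusters for Tulp3 on its brighter probe set. The 3 GF arrays of Ofd1 share a level of 7.56 to 7.57 while their Gli1 levels run from 5.93 to 8.39.

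As a description over the 24 arrays, which share lines and tissues, the 7 genes were only loosely alike. Their closest pair was Ift172 with Bbs2 (r = 0.64), then Ift88 with Ofd1 (r = 0.56), and Ift88 and Tulp3 ran opposite (r = -0.52). Ift88 and Ift80, of the same complex, gave 0.37, and Ift80 and Ift172 gave -0.09. Genes whose pattern was most like each member, among genes varying at least as much as the median gene, were Ppcdc (r = 0.95), Cers2 and Cyb5r1 (both 0.94) for Tulp3, Mdm1 (0.86), Slain2 (0.85) and Rbm12 (0.84) for Ofd1, and Zfp386 (0.84), Zic1 (0.83) and Fam133b (0.83) for Ift88. For Bbs2 they were Zfp975 (0.82), Pick1 and Tbc1d23 (both 0.76), for Ift172 Arpc1a and Myo5b (both 0.80) and Ephb6 (0.79), for Ift80 Crebzf (0.75), Pnrc2 and Chst10 (both 0.73), and for Kif3a Egfr (0.69), Phf21a (0.64) and Wfdc12 (0.62).

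RFX factors bind the X-box of many ciliary promoters, so RefSeq windows from 250 bases before to 50 after the start were searched on both strands for a loose X-box, a palindrome-like motif of 14 bases whose arms hold GT and AC at the ends and whose inner bases are largely free, which can overlap the other RFX motifs here. Windows were found for 6 of the 7 genes, not for Ift80. For Ift172, Bbs2 and Kif3a, all 250 bases before the start lie inside the gene's own RefSeq span. Their windows are therefore not sequence upstream of the gene. The loose X-box was in 0 of the 6, in 14 of 53 other listed cilium genes with a window (26.4%) and in 881 of 9888 array genes with one (8.91%). A strict X-box, with nearly every base fixed, was in 0 of the 6, 0 of the 53 and 13 of the 9888 (0.131%). The RFX core GTTGCC, which can lie inside an X-box, was in 3 of the 6, namely Ift172, Kif3a and Ift88, in 19 of the 53 (35.8%) and in 14.2% of array genes. Counted from the start, the match lies at bases 1 to 6 in Ift172, 22 to 27 in Ift88 and -98 to -93 in Kif3a. Those of Ift172 and Ift88 are thus not before the start, and that of Kif3a is inside the gene's span. The Gli motif GACCACCCA was in 0 of the 6 and 0 of the 53, and in 0.192% of array genes. A match is a description of letters and not a binding site.

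The X-box matches that lie before the start of the gene, shown with their flanks to set IFT genes with such a box beside other cilium genes and chosen after the search, were as follows, with the 14 letters of the match in capitals. Ift22 holds a pair at chr5:136908079-136908108 and chr5:136908109-136908138, and Ift57 a pair at chr16:49699199-49699228 and chr16:49699234-49699263, all on the plus strand of GRCm38.p6. Tctn2 is at chr5:124598679-124598708, Nek2 at chr1:191821251-191821280 and Rab23 at chr1:33719776-33719805, all plus. Rab3ip holds a pair at chr10:116950615-116950644 and chr10:116950518-116950547, Sstr3 is at chr15:78544419-78544448 and Hdac6 at chrX:7947994-7948023, all minus.

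Ift22, upstream box: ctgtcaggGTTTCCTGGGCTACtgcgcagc

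Ift22, box nearer the start: tgttcccgGTCGCCGTGGAAACtgaccagc

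Ift57, upstream box: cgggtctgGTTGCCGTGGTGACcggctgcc

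Ift57, box nearer the start: gttgcctgGTAACGGTGGGGACtgtgcggt

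Tctn2: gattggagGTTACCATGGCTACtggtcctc

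Nek2: ggacatccGTTACCATAGCGACttcagcca

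Rab23: tcaccttgGTCTCCTTGGGTACcaaggcct

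Rab3ip, upstream box: ccagagtgGTTCCCAGGGAAACcgctgtag

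Rab3ip, box nearer the start: gcgcgcgaGTCCCCCTCGCCACtccctccc

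Sstr3: cttgagaaGTGTCTCTTGCCACccccaact

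Hdac6: gggatcagGTGCCCGGGGCCACacaggtcg

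The RAS differences of these genes were -0.31 for Ift22 (adjusted p = 0.179), 0.04 for Ift57 (adjusted p = 0.844), 0.28 for Tctn2 (adjusted p = 0.126), -0.58 for Nek2 (adjusted p = 0.0175), 0.06 for Rab23 (adjusted p = 0.763), 0.53 for Rab3ip (adjusted p = 0.0129), -0.23 for Sstr3 (adjusted p = 0.0268) and -0.24 for Hdac6 (adjusted p = 0.146). Of the 14 listed genes with a loose X-box, 1 rose and 3 fell in RAS cells, with a median of -0.09. Of the 39 without one, 1 rose and 12 fell, with a median of -0.21. In GF cells 3 of the 14 and 5 of the 39 fell. The difference between these shares was not tested.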

How the data were processed

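The 24 arrays carry 1 deposited intensity per probe set on a linear scale, with biotin-labelled total RNA hybridized per the labels' protocols. Summarization and normalization by the authors are not given in the sources used here, and between-array scaling can shift every difference. Intensities ran from 9.98 to 37842, array medians from 188.8 to 245.1, and arrays have no read depth, so their number limits the precision. Of 22690 probe sets, 20393 had 1 symbol, 691 several and 1606 none, and 20364 matched the GRCm38.p6 gene table. For 4958 genes with several probe sets, the one with the highest mean was used.

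Values were log2(intensity + 16). Linear models with empirical Bayes moderation were fitted in limma 3.58.1 (R 4.3.3), two-sided, with Benjamini-Hochberg adjustment over 12394 genes and calls at an adjusted p under 0.05. The script was tested on simulated data. Tissues were fitted with 1 mean per parental line, cultures with treatment and line as terms, and single lines with 9 means of line and treatment. Correlations used permutation tests in SciPy 1.17.1 (Python 3.11.15). Promoters are from RefSeq, GRCm38.p6. Same-numbered arrays had deviations correlated from -0.154 to 0.090, so numbers were not taken as pairs. The alternatives covered pseudocounts, scaling, a filter on dim genes, probe sets, variance priors, blocks, and leaving out arrays or lines. The members and lists were chosen with earlier results of these data known. All members and Gli1 are named, and from other lists up to 2 called genes per direction and comparison with the smallest adjusted p. Genes named outside this rule, such as Nek2 in adult against P6 cerebellum, were chosen after their values were seen.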

Additional observations from a re-analysis of the deposited data

Results flagged for a closer look

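Among the 4 parental arrays of SMB21, replicate 1 stood far from the other 3 for Ift88, at 7.15 against 7.69 to 7.75, a gap of 0.91 of the range. The same array stood apart for Bbs2, at 8.08 against 8.25 to 8.26, a gap of 0.96 of the range. Chance sets an array apart in this way in about 1 in 20 groups, and 8 genes were looked at in this group. Without that array, Ift88 and Bbs2 kept the side of the threshold they had in the RAS and GF comparisons across lines.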

How the results depend on the processing

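Of 2251 recomputed results of the 7 genes, 2078 kept direction and side of the threshold, 80 lost and 40 gained a call, 48 uncalled ones changed sign, and 5 reversed, of which 4 were called in the design used and Tulp3 against GF was called after the change. The reversals came from the other probe set: Ift80 in RAS against parental cells at 0.00, and Tulp3 at -0.10 there, -0.74 against GF, -0.04 in SMB21 and -0.32 in SMB56. The 2251 results pool called and uncalled ones. Among called ones, the RAS call of Tulp3 was lost in 2 of 32 alternatives and that of Ofd1 in 8 of 31. The call of Tulp3 in SMB21 RAS cells was lost in 15 of 27. The number of called genes also changed. With single arrays or line means left out it ran from 341 to 1650 for MB against P6 (1361 in the design used), 970 to 3699 for parental cells against P6 (3176), 1574 to 2553 for parental cells against MB (2553) and 1107 to 2729 for adult against P6 (2374). For cultures it ran from 401 to 1190 for GF (1109), 3425 to 4124 for RAS (3974), 457 to 1659 for RAS against GF (1383), 1715 to 2689, 1227 to 3028 and 329 to 2360 for RAS in SMB21, SMB55 and SMB56 (2409, 2666 and 1492), 190 to 1230 and 65 to 339 for RAS and GF responses by line (428 and 174), and 228 to 1280 for the parental lines (630). With a replicate block, which takes equal numbers as pairs though the check did not show pairing, counts were 415 for MB against P6, 243 for GF, 3175 for RAS, 161 for RAS against GF, 1222, 1548 and 401 for RAS by line, and 9 and 1 for the responses by line. The block ended the RAS calls of Ift88 (-0.52, adjusted p = 0.0601) and Ofd1 (-0.46, 0.0738), the GF call of Ofd1 (-1.09, 0.054) and the call of Ift172 against GF (0.97, 0.102). In single lines it ended those of Tulp3 in SMB21 (0.52, 0.233) and SMB56 (0.99, 0.117), Ift80 in SMB55 (-1.41, 0.0832) and Ift88 in SMB56 (-0.92, 0.123), and for Gli1 those in GF (-1.77, 0.0886), MB against P6 (1.66, 0.11) and SMB56 RAS (-2.77, 0.061). Crossing the SMB55 numbers, chosen after seeing the data because those pairs correlated at -0.154, gave 363 for GF, 3293 for RAS and 158 for RAS against GF. With 1 mean per line and treatment the counts were 19 for GF, 667 for RAS and 53 for RAS against GF. Without line SMB21 and without SMB56 GF gave 200 and 306, and without SMB55 RAS gave 2548 and RAS against GF 222. MB against P6 gave 896 with line as a random block, and parental cells against MB 1373 with 1 cerebellum group. Fewer arrays enter the fits that leave some out, and for the other changes the cause was not tested. Centring arrays moved the median of all genes by 0.18 in MB against P6, -0.22 in parental cells against MB and -0.15 in SMB56 RAS cells, and the split of higher to lower calls from 533 and 828 to 989 and 616, from 1538 and 1015 to 834 and 2032, and from 761 and 731 to 611 and 1044. For RAS it went from 1750 and 2224 to 1506 and 2953, and for RAS against GF from 707 and 676 to 547 and 981. Quantile normalization gave 841 and 756 for MB against P6. Dim probe sets, such as the second of Tulp3, limit what signal over background can show.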
